A study of Homo sapiens with 8 samples.

Results

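LYPD1 and 9 further genes of the LY6/uPAR domain family were followed through 8 RNA-seq libraries of 2 human bladder cancer cell lines. The 10 genes are LYPD1, LYPD3, LYPD6, LYPD6B, LY6D, LY6E, LY6K, LY6H, CD59 and PSCA, found by symbol among the 27475 human genes of the table, and each symbol was present. The set was chosen by the measured values of LYPD1, whose level was lower with siPAI-1 in both lines, together with membership of the family. The siPAI-1 values of LYPD1 are therefore a description without a test, while the other 9 genes, and all 10 genes between the lines, were tested. For LYPD1 the comparison of the lines draws on the same 8 values by which it was chosen. Its p-values there are not independent of that choice.

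The established lines UM-UC-3 and RT112 were transfected for 72 h with 100 pmol of siRNA, either 3 pooled sequences that target PAI-1 (siPAI-1) or 3 pooled scrambled ones (Scr). The study asked which genes respond to this knock-down. The 4 groups are UM-UC-3 Scr, UM-UC-3 siPAI-1, RT112 Scr and RT112 siPAI-1, with 2 libraries each, called replicate 1 and 2. All libraries come from transfected cultures of a single line each, a knock-down leaves part of the transcript, and all 3 siRNAs of a pool were given together, so no siRNA can be looked at alone. The paper speaks of 3 independent knock-down experiments, the labels do not say whether the 2 libraries of a group were separate cultures, and p-values then measure only the spread between these libraries.

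Proteins of this family share a domain of disulfide-bonded, finger-like loops, and most are held on the outer face of the cell membrane by a glycosylphosphatidylinositol (GPI) anchor. The founding receptor, uPAR (PLAUR), binds the protease urokinase. LYPD1, LYPD6, LYPD6B and LY6H bind or modulate nicotinic acetylcholine receptors, and LYPD6 also takes part in Wnt signalling. LYPD3 (C4.4A) is a close relative of uPAR in stratified epithelia, LY6D is a keratinocyte surface antigen, and PSCA (prostate stem cell antigen) is found on urothelium and prostate epithelium. CD59 blocks the assembly of the complement pore, LY6E is induced by interferon, and LY6K is a cancer/testis antigen.

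Promoter windows of LYPD1, LYPD3 and LYPD6B are shown because LYPD1 chose the set, and because LYPD3 and LYPD6B had the widest relative gaps between the lines besides LY6D, as described further on. Each window holds 250 bases before and 50 after an annotated transcription start, 5′ to 3′ on the strand of the gene, from RefSeq on GRCh38.p14. Windows of 5 of the 10 genes were searched, 11 in all, and LY6D was not among these genes. Capitals mark matches to 6 motifs, searched on either strand. These were the GC box with the letters GGGCGG, which binds SP factors, and the TATA box with the letters TATAAA, which positions the start of transcription. The others were the AP-1 motif with the letters TGANTCA, which binds FOS and JUN proteins, and the E-box with the letters CACCTG, which binds SNAI and ZEB proteins. Also searched were the GATA motif with the letters AGATAA and the GRHL motif with the letters AACCGGTT, both named after epithelial factors. No match overlapped another. The windows of LYPD1 lie on chromosome 2 at chr2:132670156-132670455 and chr2:132671477-132671776, both on the minus strand.
LYPD1 window 1: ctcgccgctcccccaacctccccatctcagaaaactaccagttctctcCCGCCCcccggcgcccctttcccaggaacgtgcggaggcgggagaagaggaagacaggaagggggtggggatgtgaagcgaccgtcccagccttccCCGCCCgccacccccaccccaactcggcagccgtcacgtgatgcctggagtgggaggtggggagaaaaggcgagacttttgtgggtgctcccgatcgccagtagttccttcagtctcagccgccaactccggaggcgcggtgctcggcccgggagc
LYPD1 window 2: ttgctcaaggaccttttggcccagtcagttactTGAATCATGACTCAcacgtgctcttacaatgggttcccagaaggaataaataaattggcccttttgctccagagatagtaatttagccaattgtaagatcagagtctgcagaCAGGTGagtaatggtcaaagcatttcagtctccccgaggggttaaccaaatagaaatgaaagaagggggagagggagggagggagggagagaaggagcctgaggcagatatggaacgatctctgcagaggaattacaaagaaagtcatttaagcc
The window of LYPD3 is chr19:43465559-43465858 on the minus strand.
LYPD3 window 1: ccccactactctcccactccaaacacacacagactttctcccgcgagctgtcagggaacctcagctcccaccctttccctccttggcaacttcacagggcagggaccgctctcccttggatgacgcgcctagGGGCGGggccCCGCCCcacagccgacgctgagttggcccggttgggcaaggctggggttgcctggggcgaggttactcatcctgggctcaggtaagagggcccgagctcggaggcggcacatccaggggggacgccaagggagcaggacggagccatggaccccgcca
The windows of LYPD6B are chr2:149077272-149077571 and chr2:149117924-149118223 on the plus strand.
LYPD6B window 1: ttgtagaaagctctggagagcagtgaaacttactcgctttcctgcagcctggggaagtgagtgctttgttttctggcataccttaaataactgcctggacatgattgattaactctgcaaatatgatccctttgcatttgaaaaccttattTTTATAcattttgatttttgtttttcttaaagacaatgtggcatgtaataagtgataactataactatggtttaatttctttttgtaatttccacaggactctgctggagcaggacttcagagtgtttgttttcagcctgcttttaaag
LYPD6B window 2: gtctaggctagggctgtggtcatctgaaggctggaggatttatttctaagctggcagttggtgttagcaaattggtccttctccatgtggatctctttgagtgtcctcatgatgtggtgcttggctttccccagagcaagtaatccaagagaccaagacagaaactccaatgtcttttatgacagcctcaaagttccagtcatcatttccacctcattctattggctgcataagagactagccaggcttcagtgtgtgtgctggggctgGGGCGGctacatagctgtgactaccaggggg

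The windows of LYPD1 differed in base composition. Window 1 holds 24 CpG and 2 GC boxes at a GC content of 67%. Window 2, which contains the outermost annotated start, holds 3 CpG at a GC content of 45.3%, with AP-1 matches that begin at −217 and −210 and an E-box at −105, counted from the start. The median over all 35116 windows of the table was 14 CpG. A GC box was present in 45% of all windows, an AP-1 match in 7.71% and a CACCTG E-box in 20.6%. LYPD3 has 17 CpG and 2 GC boxes, that is, GGGCGG and its complement. In LYPD6B both windows have 1 CpG, and neither contains the outermost annotated start, at chr2:149038699. Window 1 carries 1 TATA box match, read as TTTATA, that begins at −99, and window 2 carries 1 GC box at 19. These motifs were found in 11.5% and 45% of all windows. AGATAA (10.3% of all windows) and AACCGGTT (0.134%) were not matched in these windows. These matches describe the letters of the windows, and binding was not measured here.

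Levels are given in TPM (a gene's share of the transcripts of a library, corrected for gene length), and differences between groups on the log2(TPM + 0.1) scale. Depth was estimated at 29.2 to 34.2 M reads (M for mega) per library, and 16157 to 16663 genes were above 0. In 2 libraries a group of genes stood apart from the replicate, UM-UC-3 Scr replicate 1 and RT112 siPAI-1 replicate 1, with the values given beside LY6D and LY6K. As to cell type, 15 of 17 urothelial markers were higher in RT112 than in UM-UC-3 with Scr and 0 lower. Over all 20274 genes tested, 25% were called higher and 26.5% lower in this comparison. The urothelial markers summed to 13326 to 13512 TPM in RT112 Scr and to 227 to 245 TPM in UM-UC-3 Scr. Of 8 mesenchymal markers, 5 were called lower in RT112 than in UM-UC-3 with Scr and 2 higher, FN1 and SNAI2. VIM, the intermediate filament of mesenchymal cells, averaged 2997 TPM in UM-UC-3 Scr against 6.93 TPM in RT112 Scr.

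LYPD1 had 1.73 and 2.00 TPM in the RT112 Scr libraries, against 0.67 and 0.57 TPM in the RT112 siPAI-1 libraries. Both UM-UC-3 siPAI-1 libraries listed the gene at 0, and their Scr counterparts had 0.33 and 0.24 TPM. The Scr and siPAI-1 values did not overlap in either line, which is what selected the gene. In RT112 the mean went from 1.87 ± 0.19 TPM (SD, n = 2) to 0.62 ± 0.071 TPM, a ratio of 0.332 and a difference of −1.45 (SE 0.36). No fold is given for UM-UC-3, where the siPAI-1 group is at 0. The values rest on few reads: at most about 121 and 135 reads in RT112 Scr, 53 and 41 in RT112 siPAI-1, 24 and 18 in UM-UC-3 Scr, and none in UM-UC-3 siPAI-1, from the estimated depth and the longest annotated transcript. With a pseudocount of 1 TPM in place of 0.1 the RT112 difference was −0.82.

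**Figure D1:**
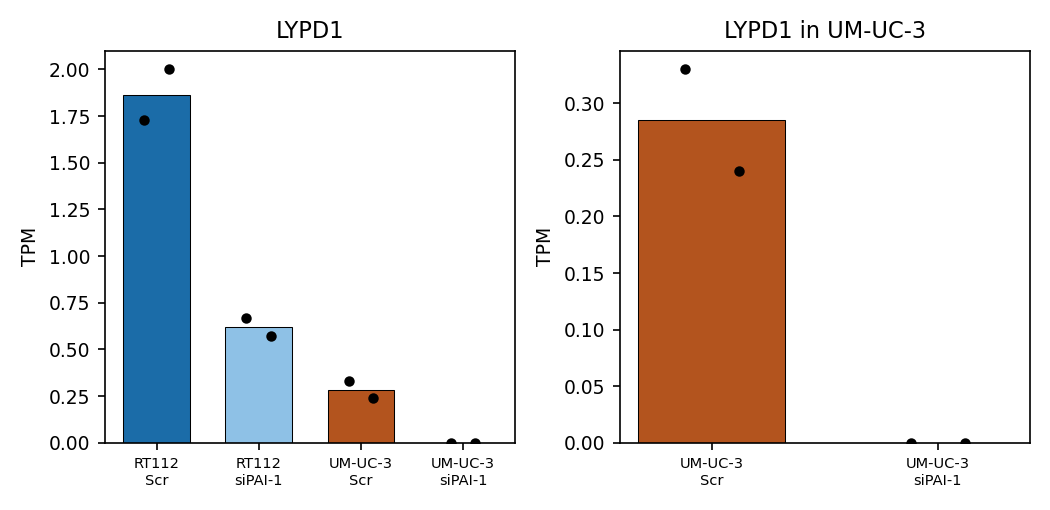
TPM of LYPD1 in the 4 groups (left) and in UM-UC-3 on its own axis (right), with bars for the group mean and points for the 2 libraries of each group. LYPD1 was at 1.73 and 2.00 TPM in RT112 Scr, at 0.67 and 0.57 TPM in RT112 siPAI-1, and at 0 in both UM-UC-3 siPAI-1 libraries.

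LYPD1 (ENSG00000150551.10) lies at chr2:132643286-132671526 in RefSeq on GRCh38.p14 and shares 3297 bases of its span with GPR39, a receptor gene. GPR39 had 11.6 and 12.9 TPM in RT112 Scr and 11.3 and 13.2 TPM in RT112 siPAI-1. In UM-UC-3 its values were 17 and 19.6 TPM for Scr, then 17.03 and 16.9 TPM for siPAI-1. Thus GPR39 overlapped between Scr and siPAI-1 in both lines, and it stood above LYPD1 in every library. The libraries were stranded, but the strand setting of the counting is not given in the sources used here, so reads from shared bases may count for either gene.

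Over the 8 libraries, the genes whose log2(TPM + 0.1) followed LYPD1 most closely among 12803 genes that averaged 1 TPM or more were NDUFAF1 (Pearson r = 0.987), NOP2 (0.979), HEXDC (0.976), AMER1 (0.974) and PQBP1 (0.973). NDUFAF1, an assembly factor of respiratory complex I, had 21.3 and 21.9 TPM in RT112 Scr, 19.3 and 19.8 TPM in RT112 siPAI-1, 18.5 and 18.8 TPM in UM-UC-3 Scr, and 15.8 and 15.7 TPM in UM-UC-3 siPAI-1. That is the same order of the 4 groups as LYPD1 over a much narrower range. These genes were picked as the closest of many and the 8 libraries fall into 2 lines, so the coefficients are a description.

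Among the 10 genes, levels in RT112 Scr spanned from 2656 TPM for LY6D to 0.145 TPM for LY6H. LY6D had 2613 and 2700 TPM there and ranked 42nd of all genes by its group mean, and LY6E, at 1126 and 1113 TPM, ranked 138th. CD59 followed with 307 and 315 TPM. LYPD3 (107 and 110 TPM) and PSCA (99.1 and 116 TPM) overlapped. Below them came LY6K with 47.7 and 44.5 TPM and LYPD6B with 22.2 and 24.7 TPM. LYPD1 was next, above LYPD6 with 1.17 and 1.5 TPM, and LY6H was lowest with 0.11 and 0.18 TPM. Apart from LYPD3 and PSCA, no neighbours in this order overlapped. LY6D made up 60.4% to 62.0% of the summed TPM of the 10 genes in every RT112 library.

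The order in UM-UC-3 Scr was different at the top, where CD59 (226 and 227 TPM) stood above LY6E (184 and 163 TPM). LY6K followed with 16.2 and 17.8 TPM and PSCA with 6.17 and 4.09 TPM. LY6D was listed at 0 in replicate 1 and had 3.00 TPM in replicate 2, so that it overlapped the genes below it. Every other gene of the set was under 0.4 TPM, and LYPD1 led these. LYPD3 had 0.16 and 0.18 TPM, LYPD6 0 and 0.08, LY6H 0.06 and 0, and LYPD6B 0.05 and 0, so LYPD6, LY6H and LYPD6B overlapped one another. The 10 genes summed to 415 and 433 TPM in UM-UC-3 Scr and to 4325 and 4427 TPM in RT112 Scr.

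**Figure D2:**
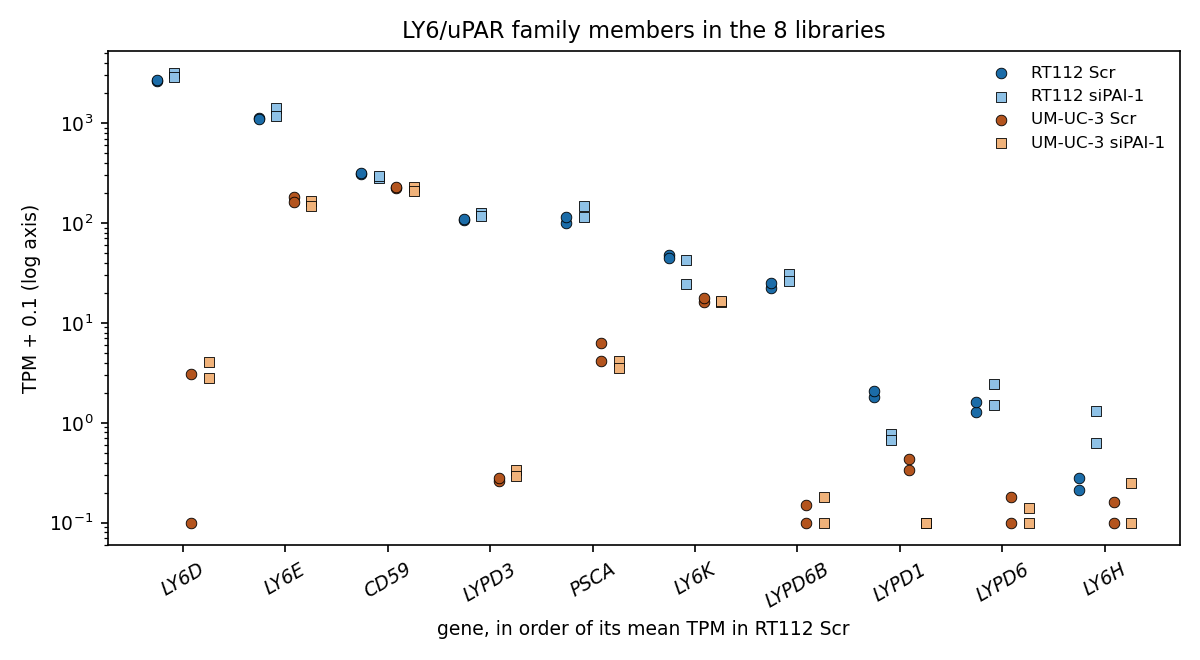
TPM + 0.1 on a log axis for each gene (x axis, ordered by the RT112 Scr mean) in each of the 8 libraries, with circles for Scr and squares for siPAI-1, blue for RT112 and orange for UM-UC-3. All 4 RT112 points lie above all 4 UM-UC-3 points for each gene except LY6H, for which RT112 Scr replicate 1 (0.11 TPM) lies below UM-UC-3 siPAI-1 replicate 1 (0.15 TPM).

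Between the lines, the set differed in 1 direction, which the wider family did not share. The 10 genes were chosen with earlier results of these data known, and LYPD1 is counted among them. Of 17 further family genes tested with Scr, 4 were called higher in RT112 and 5 lower. With Scr, 9 of the 10 genes were called higher in RT112 and 0 lower, where 25% of the 20274 genes tested were called higher and 26.5% lower (limma, adjusted p under 0.05). Their median difference, RT112 minus UM-UC-3, was 3.05, against 0 over all genes tested. The siPAI-1 libraries gave 10 of 10 higher and 0 lower, where 26.1% and 26% of all genes were called, with a median difference of 3.53. The group means of these comparisons come from separate libraries, while their spread was estimated over all 8, so the comparisons share 1 SE per gene. Fitted on their own 4 libraries, each gave 9 of 10 higher. LY6H was the exception with Scr, at 0.94 (SE 0.58, limma adjusted p = 0.230). In bulk RNA, fewer cells that express a gene and less RNA per cell cannot be told apart.

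Of the genes linked to stratified and urothelial epithelium, LYPD3 stood at 107 and 110 TPM in RT112 Scr against 0.16 and 0.18 TPM in UM-UC-3 Scr, a difference of 8.65 (SE 0.15, limma adjusted p = 3.95e-07) and 638 times the UM-UC-3 mean. The UM-UC-3 values correspond to at most about 5 and 6 reads. PSCA, at 99.1 and 116 TPM against 6.17 and 4.09 TPM, was 20.96 times higher (4.39, SE 0.22, limma adjusted p = 1.13e-05). With siPAI-1 the differences were 8.61 (SE 0.15) for LYPD3 and 5.08 (SE 0.22) for PSCA.

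LY6D was the highest of the set in RT112 and near the floor in UM-UC-3. RT112 Scr had 2613 and 2700 TPM and RT112 siPAI-1 had 3162 and 2894 TPM. The 4 UM-UC-3 libraries had 0 and 3.00 TPM (Scr) or 2.69 and 4 TPM (siPAI-1). RT112 minus UM-UC-3 was 12.22 (SE 1.38, limma adjusted p = 0.000357) with Scr and 9.80 (SE 1.38, limma adjusted p = 0.000998) with siPAI-1. The Scr value was 9.74 without UM-UC-3 Scr replicate 1, which is the library listed at 0. That library also stood apart for other genes that are high in RT112. Over 16 such genes, chosen after values were seen as those with at least 500 TPM in RT112 and under 0.5% of that in UM-UC-3 (KRT13, KRT17, KRT19 and UPK1B among them), its median share of the RT112 level was 0.0356%, with 4 genes listed at 0. The other UM-UC-3 libraries had 0.131% to 0.148% and none at 0. LY6D itself was at 0.0946% to 0.141% of its RT112 level in those libraries. Over all 4 UM-UC-3 libraries, LYPD3 was at 0.139% to 0.208% of its RT112 level and LYPD6B at 0 to 0.308%. The part of this in the values of LY6D, LYPD3 and LYPD6B was not tested.

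Of the nicotinic receptor modulators, LYPD6B and LYPD6 sit side by side on chromosome 2, at chr2:149038699-149215262 and chr2:149329985-149486378. LYPD6B was at 22.2 and 24.7 TPM in RT112 Scr and at 0.05 and 0 TPM in UM-UC-3 Scr, a difference of 7.59 (SE 0.37, limma adjusted p = 9.86e-06). LYPD6 was at 1.17 and 1.5 TPM against 0 and 0.08 TPM, a difference of 3.41 (SE 0.45, limma adjusted p = 0.000771). So the neighbours were both near 0 in UM-UC-3, and in RT112 they were at unlike levels. LYPD1 was higher in RT112 by 2.36 with Scr (SE 0.32, limma adjusted p = 0.000828), which is 6.54 times the UM-UC-3 mean, and by 2.84 with siPAI-1 (SE 0.32, limma adjusted p = 0.000333). With a pseudocount of 1 and then 0.01 TPM in place of 0.1, LYPD1 was at 1.16 and 2.68 with Scr. With siPAI-1, where UM-UC-3 is at 0, LYPD1 was at 0.70 and 5.97, so the size rests on the pseudocount. By the same settings with Scr, LYPD6B was at 4.58 and 9.90 and LYPD6 at 1.16 and 5.48. LY6H, under 0.2 TPM in all Scr libraries, passed between the siPAI-1 libraries only, at 2.52 (SE 0.58, limma adjusted p = 0.00954). That call was lost, at an adjusted p of 0.0733, without RT112 siPAI-1 replicate 1 and, at 0.0625, without UM-UC-3 siPAI-1 replicate 2, and the change from Scr to siPAI-1 itself was not called (limma adjusted p = 0.819 for the difference of the siPAI-1 effect between lines).

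CD59, LY6E and LY6K were well above 0 in both lines. CD59 had the smallest gap of the genes called with Scr, 307 and 315 TPM in RT112 Scr against 226 and 227 TPM in UM-UC-3 Scr, a ratio of 1.37 (0.46, SE 0.059, limma adjusted p = 0.000696). LY6E was 6.46 times as high in RT112 Scr (2.69, SE 0.11, limma adjusted p = 4.90e-06). LY6K was 2.72 times as high (1.44, SE 0.24, limma adjusted p = 0.00216). Its gap with siPAI-1 was 0.97 (SE 0.24, limma adjusted p = 0.0127), a call that was lost when either UM-UC-3 siPAI-1 library was left out (adjusted p = 0.0913 and 0.0858), with the lone library assumed to vary like the other groups. The gap itself was 1.37 without RT112 siPAI-1 replicate 1 and 0.56 without RT112 siPAI-1 replicate 2. Relative to RT112, the UM-UC-3 mean over 4 libraries was 74.4% for CD59, 42.0% for LY6K, 13.7% for LY6E and 3.72% for PSCA, but 0.167% for LYPD3, 0.125% for LYPD6B and 0.0852% for LY6D.

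**Figure D3:**
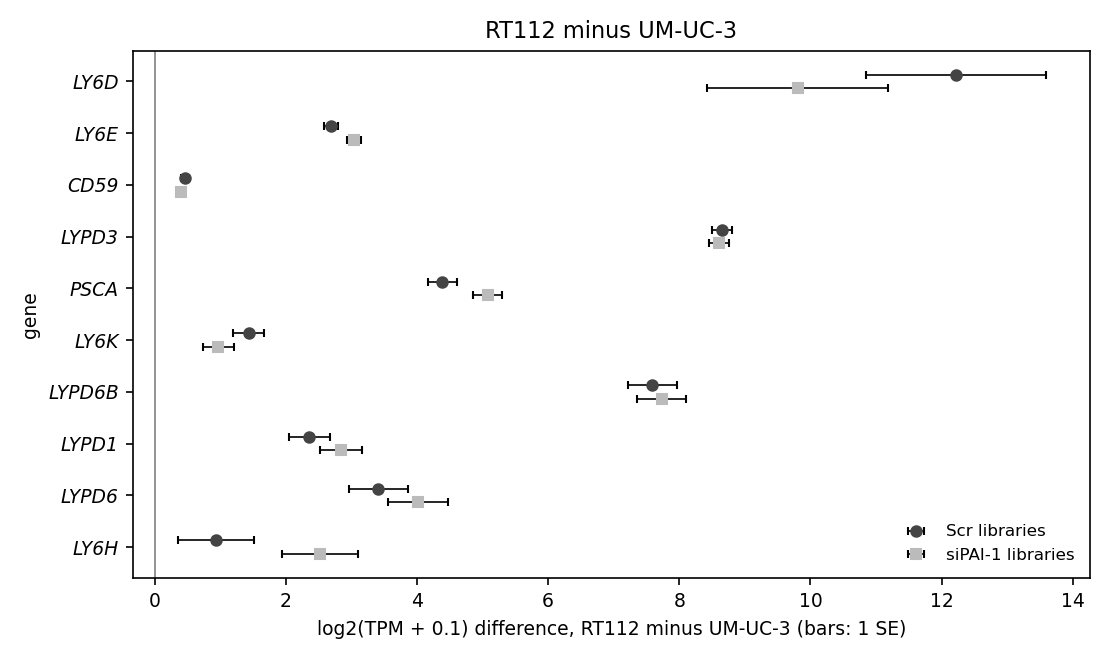
Difference between the lines, RT112 minus UM-UC-3 on the log2(TPM + 0.1) scale (x axis), for each gene (y axis), in the Scr libraries (circles) and the siPAI-1 libraries (squares), with bars of 1 SE from limma on 2 libraries per group. Every value is above 0, from 0.40 and 0.46 for CD59 to 9.80 and 12.22 for LY6D.

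Within the lines, siPAI-1 left the other 9 genes without a call. In RT112, 0 of 9 passed at an adjusted p under 0.05, where 0% of the 18437 genes tested passed. At an unadjusted p under 0.05, 3 of the 9 stood higher (LYPD3, LY6D and LY6H) and 0 lower, where 5.77% of all genes passed in either direction. Without overlap between the 4 libraries, 5 of the 9 were higher with siPAI-1 (LYPD3, LYPD6B, LY6D, LY6E and LY6H) and 2 lower (LY6K and CD59), where 18% of all genes were higher and 14.7% lower. The median difference of the 9 was 0.21, against 0.014 over all genes tested.

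Besides LY6H and LY6K, which follow, the rest of these genes showed small differences in RT112. LYPD3 went from 107 and 110 TPM with Scr to 127 and 118 TPM with siPAI-1, at 0.17 (SE 0.064, limma adjusted p = 0.838). LY6D, at 3162 and 2894 TPM with siPAI-1, differed by 0.19 (SE 0.067) and LYPD6B, at 30.7 and 26.4 TPM, by 0.28 (SE 0.12), both with the same limma adjusted p. LY6E had 1425 and 1172 TPM with siPAI-1, at 0.21 (SE 0.10), which became 0.066 without RT112 siPAI-1 replicate 1. PSCA overlapped, with 149 and 114 TPM against 99.1 and 116 TPM, and so did LYPD6, with 2.34 and 1.40 TPM against 1.17 and 1.5 TPM. CD59 had 280 and 296 TPM with siPAI-1, below its Scr values, at −0.11 (SE 0.054). The 95% interval of the difference was −0.25 to 0.032 for CD59 and 0.0044 to 0.34 for LYPD3, before adjustment.

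LY6H, which lowers the surface level of nicotinic receptors in neurons, had 0.11 and 0.18 TPM in RT112 Scr and 1.2 and 0.53 TPM in RT112 siPAI-1. The groups did not overlap, the means stood at a ratio of 5.97, and the difference was 1.90 (SE 0.54, limma adjusted p = 0.838, unadjusted p = 0.0187). At most about 4 and 5 reads lie behind the Scr values and 42 and 17 behind the siPAI-1 values. In UM-UC-3 LY6H had 0.06 and 0 TPM (Scr) or 0.15 and 0 TPM (siPAI-1). LY6H is on a gene list of the study. The paper made such lists by crossing genes near PAI-1 binding in ChIP-seq with genes that rose in this RNA-seq. Being listed is therefore not independent evidence of the direction of LY6H.

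Without RT112 siPAI-1 replicate 1 the differences of LYPD6B, PSCA and CD59 also came closer to 0, at 0.17, 0.087 and −0.070, and those of LYPD3, LY6D and LYPD6 were 0.12, 0.12 and 0.074. For LY6K, the Scr values were 47.7 and 44.5 TPM, and the siPAI-1 values 24.1 and 42.3 TPM, a difference of −0.53 (SE 0.28, limma adjusted p = 0.838), which became −0.12 without RT112 siPAI-1 replicate 1. The same library was lower than the other RT112 libraries for FN1 (58.3 TPM against 108 to 120 TPM), an extracellular matrix gene, for CDH2 (7.65 against 17.9 to 20.6 TPM), a cadherin of mesenchymal cells, and for KRT5 (593 against 784 to 879 TPM), a basal keratin. Summed over the 8 mesenchymal markers, RT112 siPAI-1 had 116 and 198 TPM and RT112 Scr 208 and 218 TPM. The part of this library in the LY6K value was not tested.

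In UM-UC-3, 0 of the 9 genes passed, where 0% of the 18528 genes tested passed, and 0 had an unadjusted p under 0.05, where 6.01% of all genes did. Without overlap 1 gene was higher (LYPD3, which stayed under 0.3 TPM) and 1 lower (PSCA), where 15.1% of all genes were higher and 17.1% lower. The median difference of the 9 was −0.050, against −0.0051 over all genes tested. PSCA had 4.07 and 3.46 TPM with siPAI-1 and 6.17 and 4.09 TPM with Scr, at −0.41 (SE 0.28, limma adjusted p = 0.858), and −0.12 without UM-UC-3 Scr replicate 1. For LY6E, siPAI-1 gave 165 and 149 TPM, at −0.14 (SE 0.088), which became −0.052 without UM-UC-3 Scr replicate 1 and −0.063 without UM-UC-3 siPAI-1 replicate 2. LY6K, at 16.2 and 16.4 TPM, was at −0.056 (SE 0.10). CD59 had 230 and 209 TPM with siPAI-1, at −0.050 (SE 0.064). LY6D differed by 2.60 (SE 1.60), which became 0.13 without UM-UC-3 Scr replicate 1. LYPD6 (0 and 0.04 TPM with siPAI-1) and LYPD6B (0.08 and 0 TPM) stayed near 0.

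**Figure D4:**
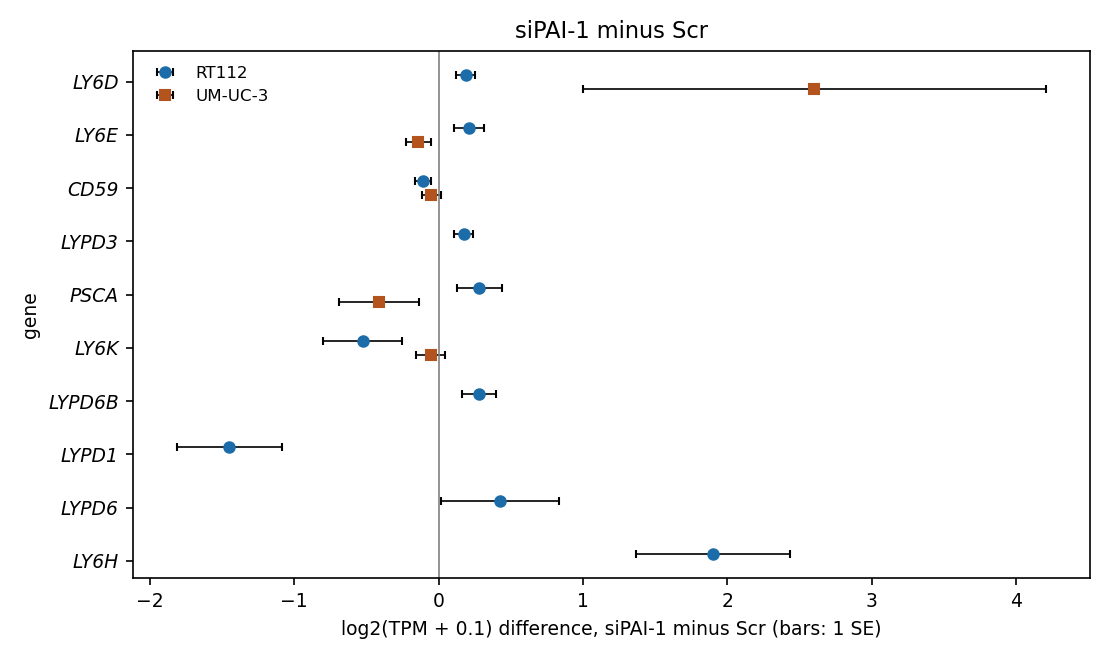
Difference of siPAI-1 minus Scr on the log2(TPM + 0.1) scale (x axis) for each gene (y axis) in RT112 (circles) and UM-UC-3 (squares), with bars of 1 SE from limma on 2 libraries per group; UM-UC-3 is drawn only for the 5 genes with a group mean of at least 1 TPM there. LYPD1 in RT112 is at −1.45 and LY6H at 1.90, and the UM-UC-3 value of LY6D (2.60) carries the widest bar.

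Taking both lines in 1 fit, 0 of the 9 genes passed for a shared siPAI-1 effect and 0 of the 9 for a difference of the effect between lines, where 0% of the 20274 genes tested passed in each. LY6H was at 1.11 in the shared fit (SE 0.47, limma adjusted p = 0.895). The differences of effect were largest in relation to their error for LY6E (0.35, SE 0.15, limma adjusted p = 0.750) and PSCA (0.69, SE 0.32, limma adjusted p = 0.762). Both were higher on average with siPAI-1 in RT112 and lower in UM-UC-3. These fits use the same Scr and siPAI-1 libraries as the within-line comparisons.

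Of the set, 5 genes lie near each other on the long arm of chromosome 8: PSCA at chr8:142670297-142682725, LY6K at chr8:142700111-142705127, LY6D at chr8:142784882-142786539, LY6E at chr8:143018529-143022409 and LY6H at chr8:143157916-143160654. RefSeq places 16 protein coding genes from PSCA to LY6H, of which 12 are in the table. Adjacent genes had unlike levels. THEM6, the gene next to LY6K, had 109 TPM in RT112 Scr and 32.0 TPM in UM-UC-3 Scr, while SLURP1, LYPD2 and LYNX1, a nicotinic receptor modulator, were under 1 TPM in both Scr groups. GML, CYP11B1 and CYP11B2, which lie between LY6D and LY6E, were listed at 0 in all 8 libraries. RT112 was higher than UM-UC-3 on average for each gene of this stretch that was above 0 in RT112 Scr. The remaining genes of the set are LYPD3 at chr19:43460787-43465608 and CD59 at chr11:33703010-33736479. CD59 shares part of its span with C11orf91, which had at most 1.21 TPM.

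**Figure D5:**
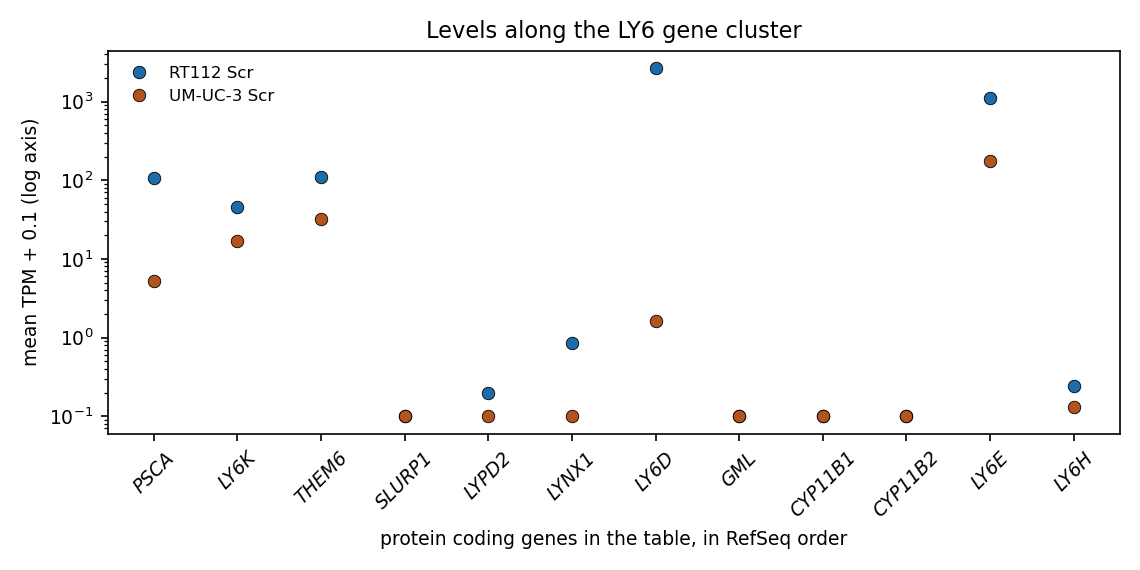
Mean TPM + 0.1 on a log axis (y axis) of the 12 genes in the table from PSCA to LY6H (x axis, in RefSeq order) in RT112 Scr and UM-UC-3 Scr, each a mean of 2 libraries. LY6D (2656 against 1.5 TPM) and LY6E (1120 against 173 TPM) stand above neighbours listed at 0.

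Of 26 further family genes listed, 24 were in the table and 17 were above 0 TPM in some library. With Scr, 4 of the 17 were called higher in RT112 and 5 lower, with a median difference of 0.26, and the shares over all genes tested were the 25% and 26.5% given above, near those of this list. PLAUR itself was lower in RT112, at 74.2 and 64.2 TPM against 150 and 133 TPM (−1.03, SE 0.097, limma adjusted p = 0.000152). LYPD3, the first of 12 protein coding genes in a row on chromosome 19 of which PLAUR is the last, was 638 times higher in RT112. LYPD5 (2.95 against 0.245 TPM) and LYNX1 (0.745 against 0 TPM) were higher in RT112 and LY6G5B (3.65 against 5.31 TPM) was lower. None of these family genes was called for siPAI-1 in either line, and PLAUR had 59.4 and 63.4 TPM in RT112 siPAI-1 and 138 and 150 TPM in UM-UC-3 siPAI-1. Among these genes, LY6G5C had 1.22 and 0.81 TPM in RT112 Scr and 0.12 and 0.16 TPM in RT112 siPAI-1, without overlap. In RT112, 14.7% of all genes were lower with siPAI-1 without overlap. In UM-UC-3, LY6G5C overlapped, with 0.3 and 0.53 TPM for Scr and 0.69 and 0.04 TPM for siPAI-1.

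Partner and pathway genes were read from lists. With Scr, 25% of all genes tested were called higher in RT112 and 26.5% lower, as given above. Of the nicotinic receptor subunits, 11 of 16 were above 0 TPM in some library, and with Scr CHRNA5 was higher in RT112 (36.9 against 14.5 TPM) and CHRNB1 (1.39 against 6.58 TPM) and CHRNA4 (0.25 against 1.03 TPM) were lower. Of 27 genes that build or attach the GPI anchor, 11 were higher in RT112 and 3 lower. GPAA1, of the transamidase that attaches the anchor, had 139 against 105 TPM, and PIGS, of the same complex, 61.4 against 41.2 TPM, while PIGK, its catalytic subunit, had 29.995 against 47.0 TPM. Among 7 complement genes, the other membrane regulators CD46 (128 against 50.6 TPM) and CD55 (54.5 against 17.6 TPM) were higher in RT112 as CD59 was, and CLU, a soluble inhibitor of the complement pore, was lower (49.7 against 484 TPM). All of these had a limma adjusted p under 0.05. DPM1, of the enzyme that supplies mannose for the anchor, had 125 against 119 TPM and did not pass with Scr (limma adjusted p = 0.339).

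The interferon-induced genes were split in direction. Of 16, with Scr 6 were called higher in RT112 and 7 lower, with a median difference of −0.10. Over all genes tested, 25% were called higher and 26.5% lower, here as for the lists that follow. OAS1 (50.9 against 8.86 TPM) and OAS3 (43.0 against 26.8 TPM), which sense double-stranded RNA, were higher, and ISG15 (19.01 against 32.2 TPM) and IFI44 (0.45 against 55.2 TPM) were lower. The squamous and stratified epithelium list did share the direction of LY6D and LYPD3, with 12 of 16 higher in RT112 and 1 lower and a median difference of 7.13, and the urothelial list, with 15 of 17 higher, had 7.55. Examples are KRT13 (3870 against 2.63 TPM), KRT17 (1268 against 0.705 TPM), KRT5 (831 against 0.895 TPM) and SFN (283 against 0.46 TPM), and for the urothelial list KRT7 (4180 against 9.22 TPM), KRT19 (2865 against 1.65 TPM), KRT8 (2573 against 34.9 TPM) and KRT18 (2029 against 182 TPM). Of 8 mesenchymal genes 2 were higher in RT112, FN1 and SNAI2, and 5 lower, among them VIM and SPARC (0.275 against 246 TPM). Of 5 immune genes tested 1 was higher and 2 lower, with CD68, a lysosomal protein of macrophages, at 17.97 against 277 TPM, and of 3 endothelial genes 1 was higher, CDH5 at 0.44 TPM against 0. CHRNA10, C8G, CD14, CD3E and PECAM1 averaged under 1 TPM over the 8 libraries.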

How the data were processed

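The 8 libraries were stranded mRNA libraries read in single 75-base reads. The authors trimmed them with cutadapt, aligned them with STAR to hg38 and deposited 1 TPM and 1 FPKM value for every gene and library, at 2 decimals. The methods name featureCounts for counting, and the submitters' processing notes name STAR 2.5.0 and RSEM 1.2.25. In the deposited FPKM values reads are divided by gene length and library total, and the deposited TPM values have an equal sum per library. Of the table, 92 ERCC entries were left out. Samples were grouped by their labels.

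Differences were tested on log2(TPM + 0.1) with limma 3.58.1 in R 4.3.3 (lmFit, eBayes with trend, two-sided), with Benjamini-Hochberg adjustment over the genes with a TPM above 0 somewhere in the fit. Each line was fitted on its own, and the lines were compared in 1 fit of 4 group means. Depth was estimated from the steps of FPKM values between 20 and 45 M reads (M for mega), at the lower of a pair of best depths. Reads per gene are upper estimates and cover counting error only. Plots used Python 3.11.15 with matplotlib 3.10.9.

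The 10 genes and the gene lists were chosen with earlier results of these data known. Named are the 10 genes, the 5 genes most like LYPD1, and of each list up to 4 called genes with the highest mean TPM. LY6G5C, THEM6, GPR39, CDH2 and the other chromosome neighbours named were added after values were seen. Alternatives were another pseudocount, FPKM, a median-ratio scaling, a filter, other fits, a replicate block and leaving out each library. One check covered by the rule for named genes is not reported here.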

Additional observations from a re-analysis of the deposited data

How the results depend on the processing

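Over 49 results, 697 alternatives were computed, and for 679 neither the direction nor the call changed, nor a count by over 1.5 times. The size of a line difference was not part of this count. With a pseudocount of 1 and then 0.01 TPM, the Scr line difference of LY6D was 10.38 and 13.90, and that of LYPD3 6.55 and 9.24. The calls that changed were LY6K between the siPAI-1 libraries in a fit on those 4 libraries alone (adjusted p = 0.0563) and LY6H there with a pseudocount of 0.01 TPM (adjusted p = 0.0528), beside those given above. Leaving out each library in turn, the number of genes of the set called higher in RT112 was 9 with Scr and 8 to 10 with siPAI-1. Within UM-UC-3, LY6K ranged from −0.125 to 0.014, positive without UM-UC-3 Scr replicate 2, and CD59 from −0.12 to 0.020, positive without UM-UC-3 siPAI-1 replicate 2. The number of all genes called for a difference of the siPAI-1 effect between lines ranged from 0 to 123, the highest without RT112 siPAI-1 replicate 2. The cause was not tested.

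Replicate numbers did not pair the libraries: the deviations of same-numbered libraries correlated between −0.043 and 0.098 over 12803 genes. A replicate block gave 0 genes called within either line, in both lines and for the difference of effects, and 10298 and 10455 genes between the lines with Scr and siPAI-1, against 10447 and 10572 without it. With 2 libraries per group, tables of TPM without counts, and few reads for LYPD1, LY6H and the UM-UC-3 values of LYPD3, LYPD6 and LYPD6B, small changes of these genes were not detectable at this depth. Larger changes within a line could go uncalled as well. LY6H in RT112, at a difference of 1.90, was not called. The main fits called none of the 18437 genes tested in RT112 or the 18528 in UM-UC-3. In 1 fit over all 8 libraries, 2 genes were called in RT112. With a filter at a mean of at least 1 TPM, 1 gene was called in UM-UC-3 and 1 over both lines.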
